A study of Mus musculus with 20 samples.

Results

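Nitric oxide and cyclic GMP signalling is described here through 10 genes. With earlier results of these data known, they were chosen by name for their place in the pathway. They are the nitric oxide synthases Nos1, Nos2 and Nos3, the synthase adaptor Nos1ap, the soluble guanylate cyclase subunits Gucy1a1, Gucy1a2 and Gucy1b1, the cyclic GMP-dependent kinases Prkg1 and Prkg2, and the phosphodiesterase Pde5a. A probe belonged to a gene when the RefSeq transcript that names it, without its version, is a transcript of that gene. This gave 13 probes for the 10 genes, of 20972 genes with a probe on the array. All 10 genes were among the 15102 genes that reached the signal needed for a test, and each of the 13 probes was well above its local background on 5 of 5 arrays in every group. No probe of the 10 genes was saturated on any array.

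RNA from the brains of male C57BL/6J mice was hybridised to 20 one-colour arrays, 5 per group. The mice carried a Tet-binding protein under the GFAP promoter, which is active in astrocytes, and Tat+ mice also carried the HIV-1 Tat gene under its control. All mice, controls included, received doxycycline at 100 mg/kg, and methamphetamine (Meth) at 2 mg/kg or saline for 7 days. The groups were Tat−/Sal (no Tat, saline), Tat−/Meth (no Tat, Meth), Tat+/Sal (Tat, saline) and Tat+/Meth (Tat, Meth). The labels give the left hemisphere, an age of 6 to 7 weeks and collection a day after the last injection, whereas the methods of the study name the caudate putamen, older mice and collection soon after a further Meth challenge that followed abstinence. By those methods every mouse received that challenge, the saline groups included. Meth and saline in the group names stand for the 7 days of injections. Tat itself was not analysed here. Since GFAP drives the system, Gfap is the gene that bears on it, and its log2 signal ranged from 10.39 to 11.87 over the 20 arrays, with group means from 10.94 in Tat+/Sal to 11.25 in Tat−/Meth.

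Nitric oxide is made from arginine by the synthases. Nos1 is the neuronal form and Nos3 the form of blood vessel endothelium, both controlled by calcium, whereas Nos2 is the inducible form, which microglia and macrophages make in inflammation. Nitric oxide diffuses into neighbouring cells and binds the heme of soluble guanylate cyclase, an enzyme of an alpha and a beta subunit that turns GTP into cyclic GMP. Cyclic GMP activates the kinases Prkg1 and Prkg2, and phosphodiesterases such as Pde5a end the signal. In the striatum nitric oxide comes mainly from a sparse class of interneurons that also make somatostatin and neuropeptide Y, and the projection neurons hold much of the guanylate cyclase.

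RefSeq start sites on build GRCm38.p6 were matched for 7 of the 10 genes, with 10 starts in all; Nos2, Nos3 and Prkg2 had no entry. The 250 bases before a start are printed for Pde5a and Nos1ap, which differed between groups, and for Gucy1a1 and Gucy1b1, subunits of a single enzyme whose starts lie near each other on chromosome 3. Capitals mark the GC box (GGGCGG) and the AP-1 site (TGANTCA), searched on both strands with no overlap between matches in these sequences.
Pde5a, chr3:122728908-122729157, plus strand: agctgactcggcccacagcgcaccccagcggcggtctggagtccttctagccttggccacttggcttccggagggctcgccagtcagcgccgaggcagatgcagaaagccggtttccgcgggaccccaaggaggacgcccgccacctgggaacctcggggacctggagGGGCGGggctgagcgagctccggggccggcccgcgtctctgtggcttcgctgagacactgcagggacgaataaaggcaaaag
Nos1ap, chr1:170589850-170590099, minus strand: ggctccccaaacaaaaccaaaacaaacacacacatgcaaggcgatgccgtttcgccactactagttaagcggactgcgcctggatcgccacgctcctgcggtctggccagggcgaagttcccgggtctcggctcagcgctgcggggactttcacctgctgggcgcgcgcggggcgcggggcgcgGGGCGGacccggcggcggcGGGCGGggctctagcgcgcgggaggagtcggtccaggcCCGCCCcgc
Nos1ap, chr1:170557111-170557360, minus strand: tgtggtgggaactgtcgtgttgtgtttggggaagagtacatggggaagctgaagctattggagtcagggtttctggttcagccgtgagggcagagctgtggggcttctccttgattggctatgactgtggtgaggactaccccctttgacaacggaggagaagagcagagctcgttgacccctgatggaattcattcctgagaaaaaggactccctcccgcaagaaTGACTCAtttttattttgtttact
Gucy1a1, chr3:82145651-82145900, minus strand: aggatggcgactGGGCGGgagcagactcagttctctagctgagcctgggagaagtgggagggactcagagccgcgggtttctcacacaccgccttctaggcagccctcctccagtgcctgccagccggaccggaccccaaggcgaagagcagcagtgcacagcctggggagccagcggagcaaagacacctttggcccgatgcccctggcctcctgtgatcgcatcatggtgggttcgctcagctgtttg
Gucy1b1, chr3:82074712-82074961, minus strand: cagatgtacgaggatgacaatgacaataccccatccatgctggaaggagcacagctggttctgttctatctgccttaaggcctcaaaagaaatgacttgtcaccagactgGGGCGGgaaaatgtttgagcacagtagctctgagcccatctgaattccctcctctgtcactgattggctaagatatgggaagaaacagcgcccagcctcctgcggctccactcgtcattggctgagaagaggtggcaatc
A GC box was present in 7 of the 10 sequences of the members, and in 32.7% of all 32851 sequences of that length. The upstream start of Nos1ap held 3 of them and the other start held none but had the single AP-1 match, a motif present in 6.75% of all sequences. The TATA box (TATAAA) and the cyclic AMP response element (TGACGTCA) were in none of the 10, against 12.4% and 1.55% of all sequences. Gucy1a1 had a further start, not printed, whose 250 bases held no match to any of these motifs.

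The arrays of a group do not share slides evenly. Tat−/Meth filled its own slide, slide 1, with 5 arrays. On slide 2 were Tat−/Sal with 5 arrays and Tat+/Meth with 3, and on slide 3 were Tat+/Sal with 5 and the remaining 2 of Tat+/Meth. The bright corner control spots, which match no mouse gene, had a log2 signal of 14.66 to 15.06 on slide 1 and of 16.80 to 17.42 on the other slides. In every comparison with Tat−/Meth below, slide and group cannot be told apart. Genes that mark striatal projection neurons were well above background on all arrays (9 of 9 genes). Of 5 markers of cortical projection neurons 2 to 3 were so in each group, and of 6 markers of cerebellum, thalamus and midbrain 3 to 4. Each value below is the log2 of a background-subtracted signal scaled to the 75th percentile of its array, and compares samples for the same probe only. Differences are in the same log2 units with the standard error (SE), and a gene passed the test when its Benjamini–Hochberg adjusted *p* over the 15102 genes was under 0.05. Whether lower signal reflects fewer cells of a type or less RNA per cell cannot be told apart in these bulk samples.

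Meth in mice without Tat was the comparison in which most members passed. Of the 10 members, 5 passed in Tat−/Meth vs. Tat−/Sal, where 50.2% of all genes did: Nos2, Pde5a and Gucy1a1 were lower and Nos1ap and Gucy1a2 were higher. The changes of Nos2 (7.82-fold) and Pde5a (5.51-fold) were above 2-fold, as were those of 6.85% of all genes. Only 15.3% of all genes passed as lower and 35% as higher. The median difference was 0.11 over the members and 0.14 over all genes. With no scaling of the arrays the median of all genes was −0.29, and the small differences turned with it, Nos1ap to −0.04 and Gucy1a2 to −0.18, whereas Nos2, Pde5a and Gucy1a1 stayed below 0 with median scaling, quantile normalisation and no scaling (Gucy1a1 at −0.07 and not passing with median scaling).

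**Figure D1:**
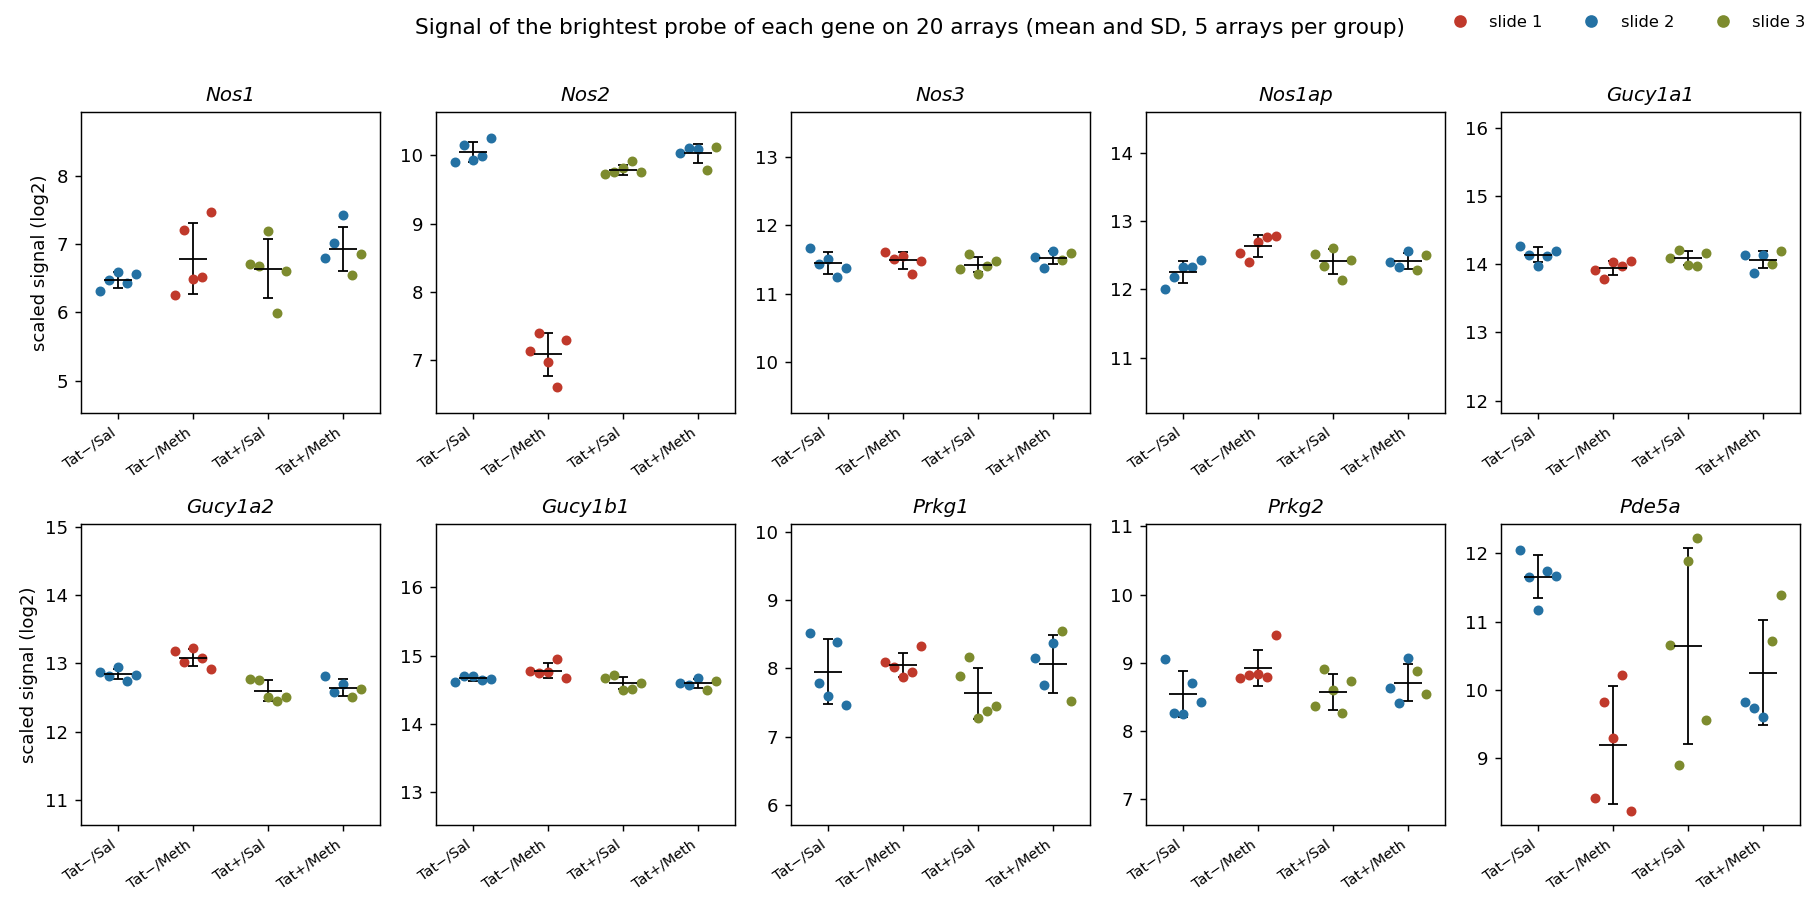
Scaled log2 signal (y axis) of the brightest probe of each of the 10 genes on each array, by group (x axis), coloured by slide, with the mean and SD of 5 arrays. Each panel spans the same number of log2 units, so that Nos2 (6.60 to 7.40 in Tat−/Meth, 9.72 to 10.26 elsewhere) and Pde5a (8.23 to 12.22) stand out from the other 8 genes.

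Nos2, the inducible synthase, was read by 1 probe on 2 spots. Its signal in Tat−/Sal was 9.91, 10.15, 9.94, 9.99 and 10.26 in replicates 1 to 5. In Tat−/Meth it was 7.14, 7.40, 6.97, 6.60 and 7.30. Every value of Tat−/Meth was thus under the lowest of Tat−/Sal. In Tat+/Meth it was 10.04, 10.10, 10.10, 9.79 and 10.12. In Tat+/Sal it was 9.72, 9.76, 9.81, 9.91 and 9.76. The other groups thus overlapped or met each other, and none of their 15 arrays was below 9.72. Nos2 fell by 2.97 ± 0.12 (SE, n = 5 and 5, adjusted *p* = 1.14e-12) in Tat−/Meth vs. Tat−/Sal, which placed it 100th by size among the 2307 genes that passed as lower. It was 2.95 ± 0.12 higher in Tat+/Meth vs. Tat−/Meth (adjusted *p* = 9.72e-13), a comparison that uses the same 5 Tat−/Meth arrays. Its spots differed by 0.0033 to 0.214 on an array.

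Macrophages and microglia can express Nos2, so their markers are given beside it. Of 6 markers, 5 were well above background on all arrays and Cd163 on none. The log2 of their summed signal was 14.06 to 14.29 in Tat−/Meth and 13.98 to 14.33 in Tat−/Sal, ranges that overlap almost wholly on the scaled values. The brightest markers weigh most in such a sum. P2ry12, a microglial purine receptor, was the single marker of the list that passed on the scaled values, lower by 0.35 ± 0.11 (adjusted *p* = 0.0116). With no scaling 0 of the 5 tested markers were higher and 4 lower, at a median of −0.47 against −0.29 over all genes. With median scaling 0 were higher and 0 lower.

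Nos1, the neuronal synthase, had no difference that passed in any comparison. Its signal was 6.32, 6.47, 6.60, 6.43 and 6.57 in Tat−/Sal and 6.26, 7.21, 6.48, 6.52 and 7.47 in Tat−/Meth. The Tat−/Meth arrays were split, with replicates 2 and 5 above all Tat−/Sal arrays and replicate 1 below them. It ranged from 5.99 to 7.20 in Tat+/Sal and from 6.56 to 7.43 in Tat+/Meth. The difference in Tat−/Meth vs. Tat−/Sal was 0.31 ± 0.23 (adjusted *p* = 0.256, 95% interval −0.16 to 0.79). Among 4 markers of the interneurons that make Nos1, Sst (somatostatin) was higher by 0.34 ± 0.08 in that comparison (adjusted *p* = 0.0013) and the others did not pass; 3 of the 4 were well above background on all arrays, Chodl not. The log2 of the summed signal of the 4 was 15.85 to 16.15 in Tat−/Meth and 15.58 to 15.77 in Tat−/Sal, which do not overlap on this scale. It was 15.835 to 16.064 in Tat+/Sal and 15.695 to 16.033 in Tat+/Meth, and both of these overlap with Tat−/Meth. Sst did not pass with median scaling (0.46, adjusted *p* = 0.0634) or with no scaling (−0.08, adjusted *p* = 0.601), where 0 of the 4 markers were higher and 2 lower. The part of these cells in any difference of Nos1 was not tested.

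Nos3, the endothelial synthase, had probes that disagreed. On its brighter probe, which stood for the gene, Tat−/Sal read 11.67, 11.44, 11.51, 11.24 and 11.38 and Tat−/Meth read 11.61, 11.50, 11.55, 11.29 and 11.48. These ranges overlap, and the difference was 0.04 ± 0.08 (adjusted *p* = 0.71, 95% interval −0.13 to 0.20). On the dimmer probe, printed in 10 spots, of which 7 to 10 were used on an array, Tat−/Sal read 8.89, 8.72, 8.91, 8.89 and 8.69 and Tat−/Meth read 9.22, 9.22, 9.32, 9.01 and 9.38. On the scaled values all Tat−/Meth arrays were above all Tat−/Sal arrays there, and this probe was higher by 0.41 ± 0.08 (adjusted *p* = 0.000405 in a fit of every probe). It was also lower by 0.35 in Tat+/Meth vs. Tat−/Meth (adjusted *p* = 0.00136). Both differences rest on the scaling: with none, Tat−/Meth read 8.79 to 9.03 and Tat−/Sal 8.63 to 9.24, and the differences were −0.01 ± 0.14 each (adjusted *p* = 0.939 and 0.957). The spread between its spots on an array had an SD of 0.034 to 0.1225. Which of the probes follows Nos3 RNA was not tested, and the mean of both passed in Tat−/Meth vs. Tat−/Sal at 0.22 (adjusted *p* = 0.0161). Of 6 endothelial markers, all above background on all arrays, Flt1 was higher and Kdr lower, both receptors for vascular endothelial growth factor. The log2 of the summed signal of the 6 was 13.62 to 14.07 in Tat−/Meth and 13.78 to 14.08 in Tat−/Sal.

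Nos1ap, an adaptor that binds Nos1 and competes for its place at the synapse, was higher in Tat−/Meth. Its signal was 12.00, 12.19, 12.33, 12.32 and 12.43 in Tat−/Sal and 12.54, 12.40, 12.69, 12.76 and 12.79 in Tat−/Meth. In Tat−/Meth 4 of 5 arrays were above every Tat−/Sal array. Tat+/Sal (12.14 to 12.60) and Tat+/Meth (12.29 to 12.57) lay between them and overlapped with both. The difference was 0.38 ± 0.10 (adjusted *p* = 0.00353), or 1.30-fold, larger than the change of 69.2% of all genes in that comparison. Tat+/Meth vs. Tat−/Meth gave −0.22 ± 0.10 (adjusted *p* = 0.0672).

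The subunits of soluble guanylate cyclase moved by small amounts and not in 1 direction. Gucy1a1, an alpha subunit, read 14.27, 14.13, 13.97, 14.12 and 14.20 in Tat−/Sal and 13.91, 13.79, 14.03, 13.97 and 14.04 in Tat−/Meth. The groups overlap, with 2 of 5 Tat−/Meth arrays below all Tat−/Sal arrays, and the fall of 0.19 ± 0.07 passed narrowly (adjusted *p* = 0.0384). That call was lost on leaving out any of 7 of the 10 arrays, the highest adjusted *p* being 0.109, without Tat−/Meth replicate 2. Gucy1b1, the beta subunit that holds the heme, read 14.62, 14.71, 14.70, 14.65 and 14.66 in Tat−/Sal and 14.78, 14.74, 14.76, 14.96 and 14.67 in Tat−/Meth. Most Tat−/Meth arrays were the higher ones (4 of 5), but the difference of 0.12 ± 0.06 did not pass (adjusted *p* = 0.0963). In Tat+/Meth it was 14.59, 14.57, 14.67, 14.49 and 14.63, with 4 of 5 arrays below all Tat−/Meth arrays, and it fell by 0.19 ± 0.06 against Tat−/Meth (adjusted *p* = 0.00894). Gucy1b1 had the smallest spread within groups of the 10 genes (SD 0.0808), above that of 6.97% of all genes.

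Gucy1a2, the other alpha subunit, had 3 probes. On the brightest, Tat−/Sal read 12.88, 12.81, 12.95, 12.74 and 12.82 and Tat−/Meth read 13.19, 13.01, 13.22, 13.08 and 12.91. In Tat−/Meth 4 of 5 arrays were above all Tat−/Sal arrays, by 0.24 ± 0.08 on average (adjusted *p* = 0.0148). In Tat+/Meth it read 12.82, 12.57, 12.69, 12.51 and 12.63, all below every Tat−/Meth array, a fall of 0.44 ± 0.08 (adjusted *p* = 0.000129) whose call was lost with no scaling (−0.10, adjusted *p* = 0.578). The other 2 probes gave 0.09 ± 0.11 and 0.24 ± 0.16 with Meth, and −0.24 ± 0.11 and −0.24 ± 0.16 for Tat+/Meth against Tat−/Meth, the same signs, and passed in neither. The mean over the 3 probes did not pass in Tat−/Meth vs. Tat−/Sal (0.19, adjusted *p* = 0.106).

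**Figure D2:**
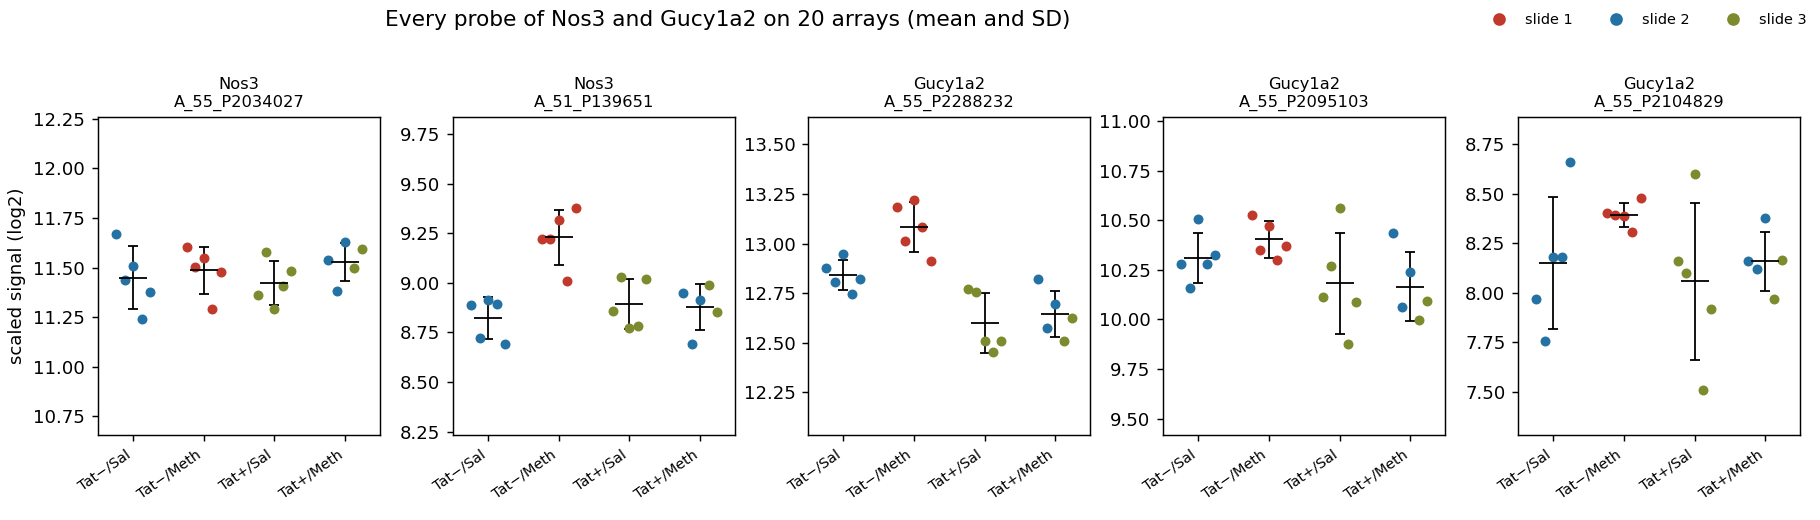
Scaled log2 signal (y axis) of both probes of Nos3 and the 3 probes of Gucy1a2 on each array, by group (x axis), coloured by slide, with the mean and SD of 5 arrays. After scaling, Tat−/Meth is apart from Tat−/Sal on the dimmer Nos3 probe (9.01 to 9.38 against 8.69 to 8.91; 8.79 to 9.03 against 8.63 to 9.24 with no scaling) and not on the brighter (11.29 to 11.61 against 11.24 to 11.67).

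The kinases did not pass in any of the 5 comparisons of groups or in the interaction, although Prkg2 did in Tat−/Meth vs. Tat−/Sal under 4 of 12 other settings. Prkg1, the form of smooth muscle and of several kinds of neuron, read 8.53, 7.79, 7.59, 8.39 and 7.47 in Tat−/Sal and 8.09, 8.02, 7.88, 7.94 and 8.33 in Tat−/Meth, within the same range (0.10 ± 0.23, adjusted *p* = 0.732). Its largest difference was 0.44 ± 0.23, for Tat+/Meth vs. Tat+/Sal (adjusted *p* = 0.447). Prkg2, the form anchored at membranes, read 9.06, 8.27, 8.25, 8.70 and 8.43 in Tat−/Sal and 8.78, 8.82, 8.83, 8.79 and 9.40 in Tat−/Meth. The groups overlap, Tat−/Meth replicate 5 alone exceeding all Tat−/Sal arrays, and the difference was 0.38 ± 0.17 (adjusted *p* = 0.0724). It was 0.37 (adjusted *p* = 0.0471) with normexp background correction, 0.45 (adjusted *p* = 0.0332) with quantile normalisation, 0.50 (adjusted *p* = 0.0339) with median scaling and 0.38 (adjusted *p* = 0.0285) with slide as a random block, and −0.04 (adjusted *p* = 0.886) with no scaling. Without Tat−/Sal replicate 1 it was 0.51 and passed (adjusted *p* = 0.0157). Slide as a random block cannot separate slide from group in this comparison, since Tat−/Meth fills slide 1. The estimated correlation within slides was −0.0623, below 0.

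Pde5a, which breaks down cyclic GMP and is abundant in smooth muscle, varied more between arrays of a group than 99.4% of all genes (SD within groups 0.937). Its signal was 12.05, 11.66, 11.17, 11.74 and 11.67 in Tat−/Sal. In Tat−/Meth it was 8.41, 9.82, 9.30, 10.21 and 8.23, each array below every Tat−/Sal array. In Tat+/Sal it was 10.65, 8.89, 11.89, 12.22 and 9.56. In Tat+/Meth it was 9.82, 9.73, 9.60, 10.72 and 11.39. Tat+/Sal thus covered nearly the whole range of the other groups, and in Tat+/Meth the 3 arrays on slide 2 (9.60 to 9.82) were lower than the 2 on slide 3 (10.72 and 11.39). Pde5a fell by 2.46 ± 0.55 in Tat−/Meth vs. Tat−/Sal (adjusted *p* = 0.00125), and this call was kept without any 1 of the 10 arrays, with falls of 2.22 to 2.72. The differences of 1.06 ± 0.55 for Tat+/Meth against Tat−/Meth (adjusted *p* = 0.114) and −1.01 ± 0.55 for Tat+/Sal against Tat−/Sal (adjusted *p* = 0.311) did not pass. Against Tat−/Sal, Tat+/Meth was −1.41 ± 0.55 over all arrays (adjusted *p* = 0.64) and −1.94 on slide 2 alone, where both groups lie and the call passed (adjusted *p* = 0.0278, 3 and 5 arrays). With slide as a block and all arrays kept, that difference was also −1.94 and did not pass (adjusted *p* = 0.73).

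Smooth muscle and pericytes express Pde5a, so their markers are given with it. Of 7 markers of mural cells, 6 were well above background on all arrays of each group and Myh11 was not. Tagln, a protein of the smooth muscle cytoskeleton, fell by 1.15 ± 0.16 in Tat−/Meth vs. Tat−/Sal (adjusted *p* = 8.2e-06) and the other 6 did not pass. The log2 of the summed signal of the list was 12.75 to 13.19 in Tat−/Meth, 13.18 to 13.67 in Tat−/Sal, 13.42 to 13.89 in Tat+/Sal and 13.52 to 13.84 in Tat+/Meth. The part of mural cells in the difference of Pde5a was not tested. Within Tat+/Sal, Pde5a ran from 8.89 to 12.22, and whether it followed the list across arrays was not tested.

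Tat in the presence of Meth was compared through Tat+/Meth vs. Tat−/Meth, which shares the Tat−/Meth arrays with the comparison above. Of the 10 members 3 passed, where 54.4% of all genes did: Nos2 was higher, as were 16% of all genes, and Gucy1a2 and Gucy1b1 were lower, as were 38.5%. With no scaling, where the median of all genes was 0.19, Gucy1a2 was −0.10 (adjusted *p* = 0.578) and Gucy1b1 0.15 (adjusted *p* = 0.318), and neither passed; Gucy1b1 did not pass with median scaling either (−0.35, adjusted *p* = 0.119). The change of Nos2 alone was above 2-fold (7.71-fold), against 7.22% of all genes. The median difference was 0.03 over the members and −0.15 over all genes.

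Without Tat−/Meth in the comparison, no member passed. Tat alone (Tat+/Sal vs. Tat−/Sal) had 0 of 10 members by limma, where 1.42% of all genes passed, and 0 by the methods' t-test. At an unadjusted *p* under 0.05 there were 2, Nos2 at −0.26 ± 0.12 (adjusted *p* = 0.221, 4 of 5 Tat+/Sal arrays below all Tat−/Sal arrays) and Gucy1a2 at −0.24 ± 0.08 (adjusted *p* = 0.101, 3 of 5 below), against 20.5% of all genes. These groups lie on different slides. Meth in mice with Tat (Tat+/Meth vs. Tat+/Sal) had 0 members by limma, by the methods' t-test and at an unadjusted *p* under 0.05, where 0% of all genes passed and 12.2% were under 0.05 unadjusted. Nos2 differed there by 0.24 ± 0.12 (adjusted *p* = 0.417, 95% interval −0.01 to 0.48). Tat+/Meth vs. Tat−/Sal, where also 0% of all genes passed, had 0 members by both tests and 2 at an unadjusted *p* under 0.05, Pde5a and Gucy1a2 (−0.20 ± 0.08, adjusted *p* = 0.64), against 7.79% of all genes. Nos2 differed there by −0.02 ± 0.12 (95% interval −0.26 to 0.22).

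**Figure D3:**
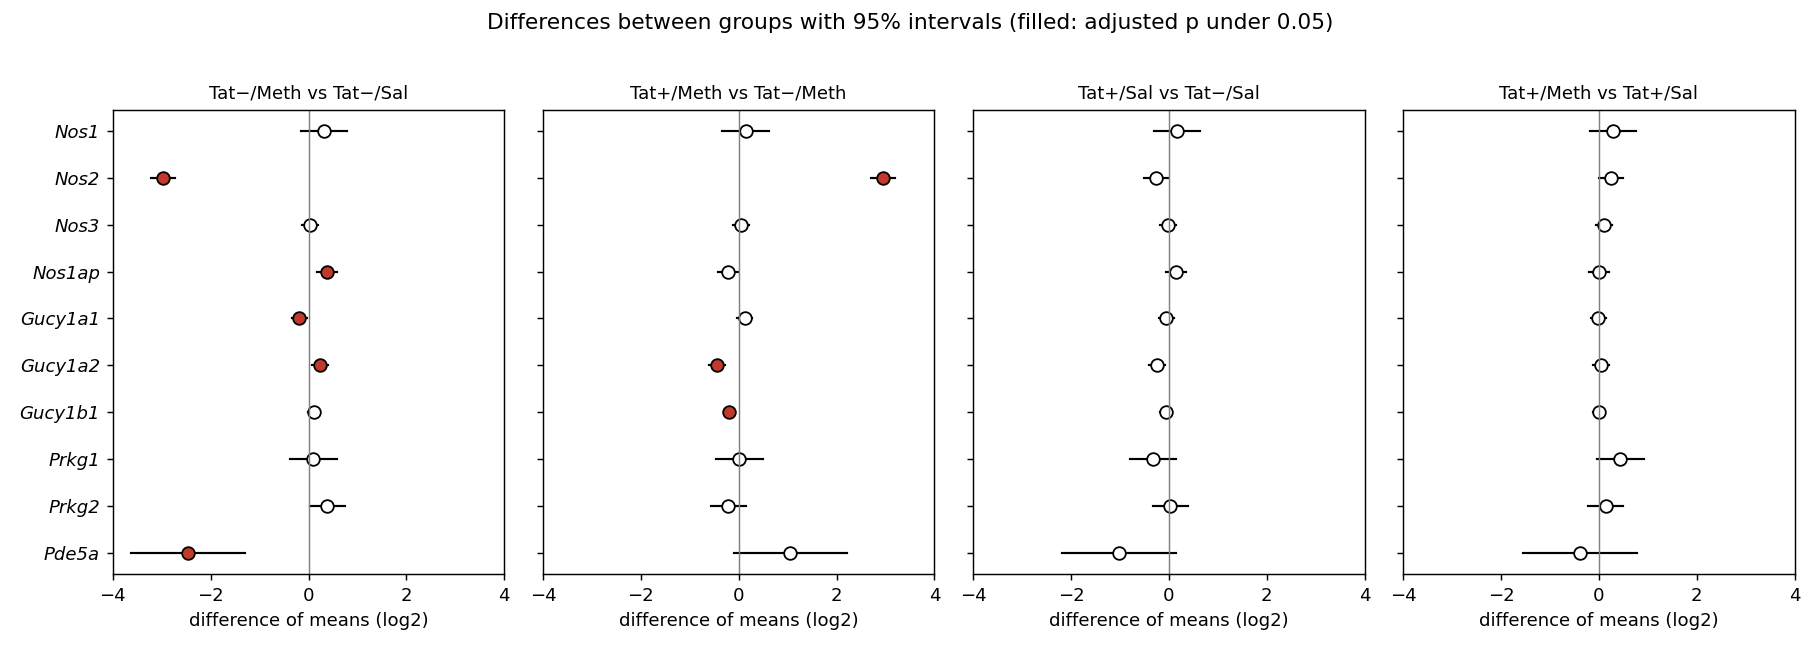
Difference of group means in log2 units (x axis) with its 95% interval for each of the 10 genes (y axis) in 4 comparisons of groups. Filled points passed at an adjusted *p* under 0.05: 5 genes for Meth without Tat, 3 for Tat+/Meth against Tat−/Meth and 0 in the others, and the interval of Pde5a is the widest throughout.

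The interaction, which subtracts the Meth difference without Tat from the Meth difference with Tat, passed for 3 of the 10 members, where 36% of all genes did. It was 3.20 ± 0.17 for Nos2 (adjusted *p* = 1.72e-10), 2.07 ± 0.78 for Pde5a (adjusted *p* = 0.0461) and −0.37 ± 0.14 for Nos1ap (adjusted *p* = 0.0432). For Nos2 and Pde5a it was above 2-fold, as for 7.44% of all genes. Nos2 passed without any 1 of the 20 arrays. Pde5a was lost on leaving out any of 13 arrays and Nos1ap on leaving out any of 12, with adjusted *p* of up to 0.0873 and 0.0813. The highest for Pde5a was without Tat+/Sal replicate 5 and for Nos1ap without Tat−/Sal replicate 1.

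Other genes of the pathway were counted in 5 lists of 68 genes, of which 53 could be tested; 14 were below the signal limit and Irag1 had no matched probe. In Tat−/Meth vs. Tat−/Sal, 16 were higher and 12 lower, 9 of them above 2-fold, where 35%, 15.3% and 6.85% of all genes were so, and the median was 0.14 both for them and over all genes. The balance turned with no scaling, to 1 higher and 24 lower of 54, and was 11 and 11 with median scaling and 22 and 11 with quantile normalisation. With Tat added to Meth, 13 were higher and 20 lower, where 16% and 38.5% of all genes were so. The median was −0.17 against −0.15 over all genes, and with no scaling 22 were higher and 0 lower. None passed in the 3 comparisons without Tat−/Meth, where 12, 10 and 5 of the 53 had an unadjusted *p* under 0.05 for Tat alone, for Meth with Tat and for both against neither. The shares of all genes at that limit were 20.5%, 12.2% and 7.79%. The interaction passed for 11 as higher and 10 as lower, where 36% of all genes passed.

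Among 11 tested partners of the synthases, 2 were higher and 2 lower in Tat−/Meth vs. Tat−/Sal, where 35% and 15.3% of all genes were so. The split depended on the scaling, with 5 higher and 2 lower under quantile normalisation and 1 higher and 7 lower with no scaling. Rasd1, a small GTPase reached by nitric oxide through Nos1ap, was higher by 1.13 ± 0.30 (adjusted *p* = 0.00445). Between Tat+/Meth and Tat−/Meth it differed by −0.87 (adjusted *p* = 0.0198). The list ran from −2.44 to 1.13 in Tat−/Meth vs. Tat−/Sal, with 2 genes above 2-fold. In Tat+/Meth vs. Tat−/Meth the list ran from −0.87 to 2.73, with 3 higher and 4 lower, where 16% and 38.5% of all genes were so. No gene at −2.44 or 2.73 is reported here by name.

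The supply of arginine and tetrahydrobiopterin, the cofactor of the synthases, had 8 of 14 tested genes higher and 0 lower in Tat−/Meth vs. Tat−/Sal, with a median of 0.24, where 35% of all genes were higher and their median was 0.14; with median scaling 3 were higher and with no scaling 0 passed, at a median of −0.18. Gchfr, which regulates the first enzyme of cofactor synthesis, was higher by 0.54 ± 0.17 (adjusted *p* = 0.0117). Spr, which makes its last step, was higher by 0.54 ± 0.20 (adjusted *p* = 0.0339), and Pts, which acts between them, by 0.42 ± 0.08 (adjusted *p* = 0.000203). None of the 8 reached 2-fold. Against Tat−/Meth, 8 were lower and 0 higher in Tat+/Meth (0 lower and 1 higher with no scaling), with Spr at −0.70, Pts at −0.55 and Gchfr at −0.42. Of all genes, 38.5% were lower and 16% higher in that comparison.

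Natriuretic peptides and membrane guanylate cyclases make cyclic GMP without nitric oxide. Of 10 genes 5 could be tested, and 1 was higher and 4 lower in Tat−/Meth vs. Tat−/Sal, where 35% and 15.3% of all genes were so. Npr2, the receptor for C-type natriuretic peptide, fell by 2.12 ± 0.22 (adjusted *p* = 4.14e-07), from 13.34 to 14.08 in Tat−/Sal to 11.68 to 11.91 in Tat−/Meth. Gucy2e, a cyclase of photoreceptors, fell by 1.67 ± 0.21 (adjusted *p* = 4.45e-06), though only 2 of the 5 arrays of Tat−/Meth read it well above background, and Nppa, the atrial peptide, by 1.08 ± 0.15 (adjusted *p* = 9.37e-06). The gene that was higher was Nppc, the ligand of Npr2 (0.61 ± 0.16, adjusted *p* = 0.00345). Tat+/Meth had 4 higher and 1 lower against Tat−/Meth, with Npr2 at 2.56, Gucy2e at 1.67 (against the same Tat−/Meth arrays, 2 of 5 above background) and Nppa at 1.28. In that comparison 16% of all genes were higher and 38.5% lower. Under median scaling, quantile normalisation and no scaling, 4 of the list were again lower in the first comparison and 4 higher in the second.

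Of 14 other phosphodiesterases and exporters tested, 5 were higher and 3 lower in Tat−/Meth vs. Tat−/Sal, where 35% and 15.3% of all genes were so. Pde6g, an inhibitory subunit of the photoreceptor enzyme, fell by 2.29 ± 0.57 (adjusted *p* = 0.00276), and Pde3a, an enzyme that cyclic GMP inhibits, fell by 1.14 ± 0.15 (adjusted *p* = 4.63e-06) its signal being well above background in 4 of 5 mice of Tat−/Meth. Pde1c, an enzyme that calcium activates, was higher by 0.69 ± 0.16 (adjusted *p* = 0.00133). With no scaling 0 of the list were higher and 5 lower. Of the same list, 3 were higher when Tat+/Meth was set against Tat−/Meth, Pde6g (2.86), Pde3a (1.13) and Pde1b (0.70), and 6 lower. The shares over all genes were 16% higher and 38.5% lower. Within Tat+/Sal, Pde6g ranged from 8.89 to 12.52, a spread like that of Pde5a (8.89 to 12.22). Of 9 tested targets of cyclic GMP and of its kinases, 0 were higher and 3 lower in Tat−/Meth vs. Tat−/Sal. Of all genes, 35% were higher and 15.3% lower there. The 3 targets were the cation channel subunits Cnga2 (−1.36 ± 0.13) and Cngb1 (−1.33 ± 0.10), which cyclic nucleotides open, and Itpr1, the inositol trisphosphate receptor (−0.21 ± 0.05). With quantile normalisation 1 was higher and 2 lower, and with no scaling 0 of 10 were higher and 8 lower.

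**Figure D4:**
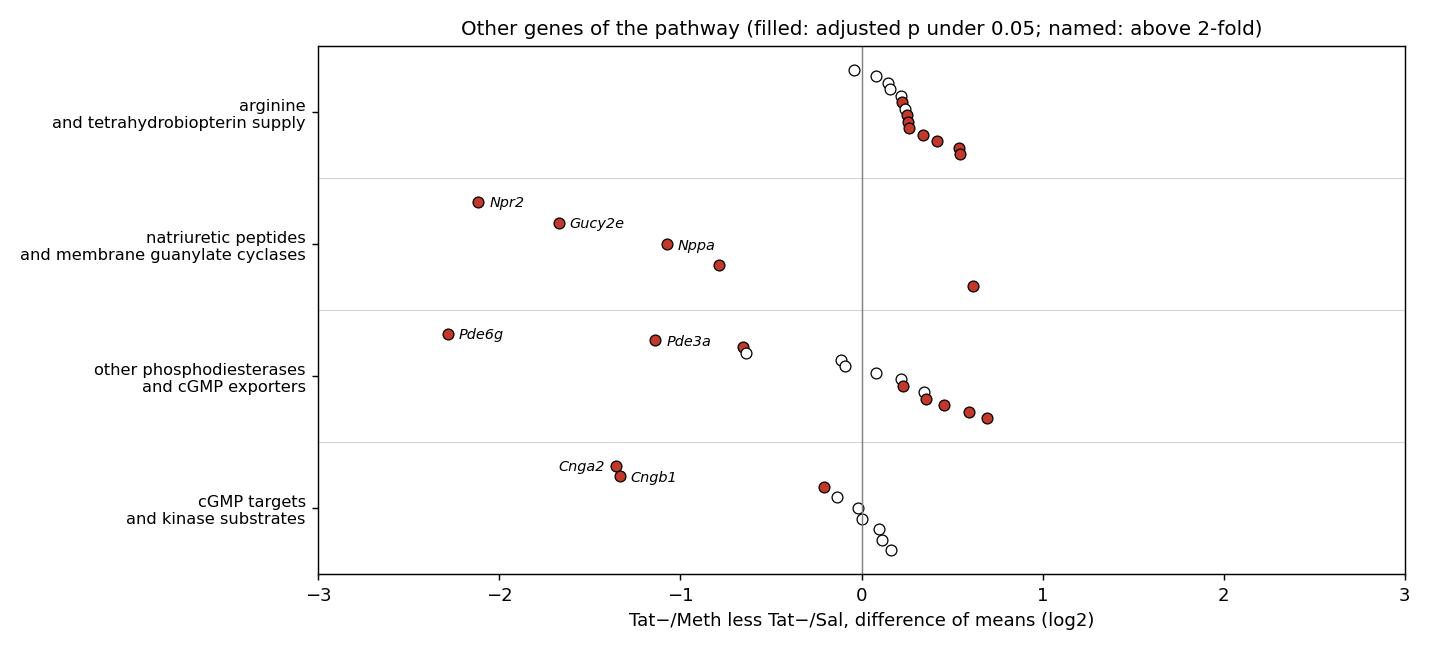
Difference in log2 units between Tat−/Meth and Tat−/Sal (x axis) of the genes tested in 4 of the 5 lists, the partners of the synthases not drawn (y axis, by list), with filled points for an adjusted *p* under 0.05 and names for changes above 2-fold. In the arginine and tetrahydrobiopterin list 8 of 14 passed, all to the right of 0 (none passed with no scaling of the arrays), and in the natriuretic list 4 of 5 passed to the left of 0, Npr2 the farthest at −2.12.

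For each member, the genes whose signal followed it most closely were ranked by Pearson correlation over the 20 arrays, as a description. The correlation was of the deviations from the mean of each group and slide, and arrays share their slide and hybridisation. The closest genes were picked from all genes tested, and how high r runs by chance was not tested. For Nos2 they were Zfp623 (r = 0.89), Cspg5 (0.81) and Serpinb6d (0.80), and for Pde5a they were Slc49a4 (0.91), 3930402G23Rik (0.90) and Creb3l1 (0.85). For Nos1 they were Macroh2a1 (0.94), Flywch1 (0.90) and Ints3 (0.88), and for Nos1ap they were Stimate (0.89), Bcl11b (0.87) and Creb3l2 (0.87). Gucy1b1 went most closely with Ddx51 (0.85), Gucy1a1 with Pak6 (0.82), Gucy1a2 with Tmem106b (0.87), Nos3 with Cdpf1 (0.78), Prkg1 with Plcxd3 (0.90) and Prkg2 with Cenps (0.88). No member was among the 3 closest genes of another, and the closest pair of members was Prkg1 with Prkg2 (r = 0.73), followed by Gucy1a1 with Prkg2 (0.58) and Gucy1a2 with Gucy1b1 (0.55).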

How the data were processed

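RNA of 20 mouse brains, 5 per group, was read on one-colour Agilent arrays, and the labels name a separate mouse for each. Per the file headers, the authors ran Feature Extraction 10.7.3.1 and deposited per-spot intensity values with the background subtracted; the deposited series matrix holds intensity values of the same arrays. Control spots and 4278 outlier spots were left out, the log2 values of a probe's spots averaged, and each array shifted to a common 75th percentile. Probes were named by RefSeq accession, each gene took the values of its brightest probe, and genes with a mean of at least 6 in some group were tested. Groups were compared with limma 3.58.1 (R 4.3.3), with a mean per group over all 20 arrays and Benjamini–Hochberg adjustment. On simulated data for Tat−/Meth vs. Tat−/Sal, with 200 of 15102 genes changed by 1 log2 unit, 180 were recovered and 7 of the others passed. The simulation held no slide effect and far fewer changed genes than passed in the data. The number of arrays limits the precision.

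The members and lists were chosen with earlier results of these data known. Named are the 10 members with every probe, up to 3 genes per list and comparison with the largest passing change, and up to 3 genes closest in pattern to each member. Among the partners of the synthases, Rasd1 alone is named and not the gene with the largest difference. Nppc, and the marker genes that passed, were named after their values were seen. Alternatives covered background correction, scaling, filters, probes, slide, test, threshold, a block for the replicate number, and the removal of single arrays. Replicate numbers were not taken to pair the mice. The qPCR of the study was not used here, and some genes that the lists count are not reported here by name. Promoters are on GRCm38.p6, whereas the array grid names mm9, and no coordinates were converted.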

Additional observations from a re-analysis of the deposited data

Results flagged for a closer look

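In 40 sets of 5 arrays (10 genes in 4 groups), a single array stood apart from the rest of its group in 2, as chance alone gives in about 1 set in 20. Nos2 in Tat+/Meth had its lowest array, replicate 4, at 9.79 with the others at 10.04 to 10.12, a gap of 0.747 of the whole range. Prkg2 in Tat−/Meth had its highest array, replicate 5, at 9.40 with the others at 8.78 to 8.83, a gap of 0.906 of the range; that array also had the highest share of probes well above background in its group (70.9%).

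The effect of Meth differed between Tat+ and Tat− mice, by the interaction in limma, for Nos2 (3.20), Pde5a (2.07) and Nos1ap (−0.37). The Tat− effect rests on Tat−/Meth, whose arrays fill slide 1, so the slide and the difference cannot be told apart.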

How the results depend on the processing

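Over all settings other than leaving out an array, members' differences that passed gave 126 values, of which 110 kept direction and call, 12 lost the call and 4 reversed; those that did not pass gave 624, of which 604 kept the call, 18 gained it and 2 reversed. Nos2 kept its call in all settings in both comparisons with Tat−/Meth, from −3.39 to −2.36 against Tat−/Sal, as did Pde5a against Tat−/Sal, from −2.88 to −2.30. All 6 reversals came with no scaling, under which the median of all genes moved from 0.14 to −0.29 for Meth without Tat and from −0.15 to 0.19 for Tat+/Meth against Tat−/Meth, and the share higher among passing genes from 69.6% to 1.72% and from 29.3% to 94.2%. They were Gucy1a2 (−0.18), Gucy1b1 (−0.30), Nos1ap (−0.040) and Nos3 (−0.38) in the first, Gucy1b1 (0.15) in the second and Nos1ap (0.11) in the interaction.

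Members passing in the interaction were 1 with median scaling, 1 with no filter and 1 at an adjusted *p* under 0.01 and 3-fold, against 3. At that limit, or at 0.05 and 2-fold, the first of these comparisons had 2 and the second 1. Slide as a random block gave 1 in Tat+/Sal vs. Tat−/Sal (Gucy1a2, −0.26, adjusted *p* = 0.0127), with an estimated correlation within slides of −0.0623, below 0, and with these groups on different slides, and slide 2 alone gave 1 in Tat+/Meth vs. Tat−/Sal (Pde5a). Leaving out an array gave 4 to 6, 3 to 4 and 1 to 3 members in the first, the second and the interaction, and 0 to 0 in the others. Gains beside those given above were Gucy1b1 in the first without Tat−/Meth replicate 5 (0.14) and Nos1ap in the second without Tat−/Meth replicate 2 or Tat+/Meth replicate 3 (−0.28 to −0.26). Same-numbered replicates did not deviate together (median correlation 0.0436, from −0.176 to 0.358), so the replicate block pairs nothing known; it gave 5, 4, 0, 0, 0 and 3 members, the added one being Nos1ap (−0.22, adjusted *p* = 0.0389). Slide as a fixed block cannot be estimated for comparisons with Tat−/Meth. All members were above background. Nos1 had the lowest signal of them, with group means of 6.48 to 6.93 near the signal limit of 6, and Tat+/Sal replicate 4 read 5.99.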
